A study of Mus musculus with 2 samples.

Results

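The 39 genes described here are E2F targets and the machinery that copies DNA. They were listed by name for what they are known to do, with earlier results of these data known, and all 39 were found among the 19059 genes measured and passed the filter on low counts in malignant cells. They comprise the 6 MCM helicase subunits Mcm2 to Mcm7, 7 genes of origin licensing and firing, 5 genes of the sliding clamp and its loader, 5 of the polymerases and strand joining, 4 of nucleotide supply, 5 that copy chromatin and methylation marks, 4 E2F factors, the 2 cyclin E genes and the checkpoint adaptor Clspn. They were read in single cells from orthotopic brain tumors of C57BL/6J mice, grown from mGSC, a GBM stem cell line of the genotype Trp53+/- and Nf1+/-. Mice received vehicle or Xevinapant, a SMAC mimetic that blocks inhibitor of apoptosis proteins, daily for a week, and 4 count matrices were deposited for each group. The matrices recorded under the Xevinapant sample also carry the word Vehicle in their own names, and their group was taken from that record, whose title and library name give Xevinapant. UMIs, which count molecules, were read with a probe kit, so levels are compared between cells and not between genes. The comparisons below ask in which cells of the tumor the replication program was active and whether its level differed between the treatments.

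In a cell at rest, RB proteins sit on E2F factors and hold their target genes silent. Cyclin D and cyclin E kinases release the E2F factors as the cell commits to divide, and the targets supply what the S phase needs: the MCM ring that is loaded on origins and unwinds DNA, the clamp Pcna that keeps polymerases on the template, the enzymes that make deoxynucleotides, and the chaperones that rebuild chromatin behind the fork. The E2F family also closes its own loop, since E2f7 and E2f8 are targets that repress the program again. The RB pathway is disturbed in many gliomas, so that the brake between G1 and S phase is often weakened.

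E2F factors are known to bind a short word in many of these promoters, and 6 promoters are shown for the contrast described below. Ccne1, E2f7 and Cdc6 are among the members that differ most between cells gated on histone transcripts and cells gated on mitotic transcripts. Mcm5, Mcm6 and Mcm7 belong to the helicase, the role that differs least by its median. Mcm6 itself does not differ little, with a log2 ratio of -0.80 against a median of -0.77 over the 39 members. Each is the 200 bases before the annotated start, 5′ to 3′ on the gene's own strand, from RefSeq on GRCm38.p6. Capitals mark an exact match to TTTGGCGC, TTTCGCGC, TTTCCCGC or TTTGCCGC or to their reverse complements GCGCCAAA, GCGCGAAA, GCGGGAAA and GCGGCAAA, and matches may overlap.
Mcm5 (chr8:75109309-75109508, plus strand): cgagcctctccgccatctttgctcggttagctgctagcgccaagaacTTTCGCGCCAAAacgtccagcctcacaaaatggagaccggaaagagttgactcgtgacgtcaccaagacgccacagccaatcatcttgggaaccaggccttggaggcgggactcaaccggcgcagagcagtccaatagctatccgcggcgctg
Mcm6 (chr1:128359706-128359905, minus strand): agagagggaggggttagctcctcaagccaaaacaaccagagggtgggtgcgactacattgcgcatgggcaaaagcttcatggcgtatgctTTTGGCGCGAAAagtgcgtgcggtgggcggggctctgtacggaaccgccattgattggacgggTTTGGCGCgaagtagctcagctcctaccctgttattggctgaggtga
Mcm7 (chr5:138171884-138172083, minus strand): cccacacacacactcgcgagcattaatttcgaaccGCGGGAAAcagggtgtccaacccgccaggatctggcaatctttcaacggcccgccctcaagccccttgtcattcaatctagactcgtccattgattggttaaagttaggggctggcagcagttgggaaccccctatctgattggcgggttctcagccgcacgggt
Cdc6 (chr11:98907951-98908150, plus strand): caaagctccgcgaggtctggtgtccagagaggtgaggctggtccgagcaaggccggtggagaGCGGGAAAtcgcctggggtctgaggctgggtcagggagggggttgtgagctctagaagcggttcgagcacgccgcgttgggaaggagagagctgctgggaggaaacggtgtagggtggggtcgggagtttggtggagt
E2f7 (chr10:110745239-110745438, plus strand): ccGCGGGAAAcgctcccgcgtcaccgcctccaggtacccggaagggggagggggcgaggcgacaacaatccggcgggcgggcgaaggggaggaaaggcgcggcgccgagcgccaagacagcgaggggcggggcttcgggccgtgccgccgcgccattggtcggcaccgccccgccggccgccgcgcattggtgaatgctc
Ccne1 (chr7:38107491-38107690, minus strand): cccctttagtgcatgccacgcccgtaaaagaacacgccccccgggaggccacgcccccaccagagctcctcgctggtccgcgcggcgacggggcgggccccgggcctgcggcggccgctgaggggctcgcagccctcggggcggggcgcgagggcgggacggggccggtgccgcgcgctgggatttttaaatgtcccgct

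Mcm6 carried 3 matches in these 200 bases, Mcm5 carried 2 that share bases, and Mcm7, Cdc6 and E2f7 carried 1 each, while no match was found in the window of Ccne1. Over windows of 300 bases, from 250 before the start to 50 after it, a word was found in 15 of the 41 promoters listed for the 33 members that could be matched, which is 36.6%, and in 2.26% of all 32851 promoters. The share was 26.5% of the 34 promoters of other replication genes, and no match was found in the 23 promoters of mitotic genes. Promoters were not listed for Mcm4, Gins1, Gins2, Rfc2, Pole and Ccne2.

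The 8 matrices held 56943 barcodes, with 71835789 to 300206053 UMIs in a matrix and a median of 7452 to 14027 UMIs in a barcode. Vehicle 1 and 3, Xevinapant 1 and 2, and Xevinapant 3 and 4 had mean squared differences of gene totals 1.48 to 5.97 times those that the sampling of cells gives, against 24.2 to 71.7 times in the 9 other pairs within a group. Each alike pair was therefore counted once, which left 3 vehicle and 2 Xevinapant samples. Cells came from 4 tumors in each group, as many as there are matrices, so alike matrices may also be separate mice. All values below are given in the order vehicle 1+3, vehicle 2, vehicle 4, Xevinapant 1+2 and Xevinapant 3+4. Vehicle matrices and Xevinapant matrices of the same number shared 1413 barcodes, 1152 of which had under 5% of the UMIs of their deeper copy and were removed. All tumors came from 1 line, the library pool and batch date changed with the treatment, and the molecule is labelled as total RNA in the vehicle group and polyA RNA in the Xevinapant group, so none of these can be told apart from the drug.

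Cells were classed by markers that include none of the 39. A cell counted as malignant where its summed malignant glial markers reached 25 UMIs per 10000 and its immune, endothelial, fibroblast and erythrocyte markers stayed under their own cuts. The study told tumor from normal cells by inferred copy number, which was not done here. Host glia that carry these markers may therefore be in the class and its states, and their share was not tested. The class held 37147 cells, in which these markers stood at 88.9, 89.0, 107, 91.3 and 81.7 UMIs per 10000 and the pan-immune markers at 0.355 to 0.699. The gate itself bounds both values. The class was divided into 20516 OPC-like, 5156 committed OPC-like, 390 premyelinating oligodendrocyte-like, 3617 AC-like, 3488 MES-like and 1031 NPC-like cells, with 2949 outside these states. A cell was OPC-like where its OPC-like markers reached 20 UMIs per 10000 and the markers of no other state reached their cut. The OPC-like state is thus defined in part by the lack of other state markers. Malignant cells were also divided by 2 sets of genes that hold no member, the replication histone genes and mitotic genes. The histone gate held 4199 cells with at least 40 histone UMIs per 10000, the mitotic gate 3874 cells with at least 40 mitotic UMIs, and the both gate 7171 cells with both. These 3 gates together are called in cycle. A rise or fall between gates means a higher or lower level, and no order in time was tested. The low gate held 13669 cells with under 20 histone and under 10 mitotic UMIs per 10000, and 8234 cells lay between. Levels are CPM, the UMIs of a gene scaled to the summed UMIs of a class in a sample.

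Every member was higher in the histone gate than in the low gate. All 39 of 39 passed the test (edgeR quasi-likelihood, adjusted p under 0.05), against 32.6% of all genes tested, with a median log2 ratio of 1.91 and a range from 1.15 for Rfc2 to 3.18 for E2f7. The same held in the both gate, where 39 of 39 rose (35.1% of all genes) with a median of 1.37. In the mitotic gate 37 rose (34.5% of all genes), with a median of 1.10, and Ccne1 fell (37.4% of all genes fell) with a log2 ratio of -0.22 ± 0.08 (SE), edgeR adjusted p = 0.033. That fall was not called with every cell thinned to 3000 UMIs, whereas the counts of members higher in the 3 gates did not change. With the marker cuts doubled 36 members rose (34.5% of all genes) and 1 fell (37.7%) in the both gate, and 35 rose (35.3%) and 2 fell (38.0%) in the mitotic gate. Set directly against the histone gate, the mitotic gate had 37 members lower (26.7% of all genes) and 0 higher (28% of all genes), with a median of -0.77. The gates were cut on cycle transcripts, so some rise of cycle genes is built into them, and what follows is where the members parted.

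**Figure D1:**
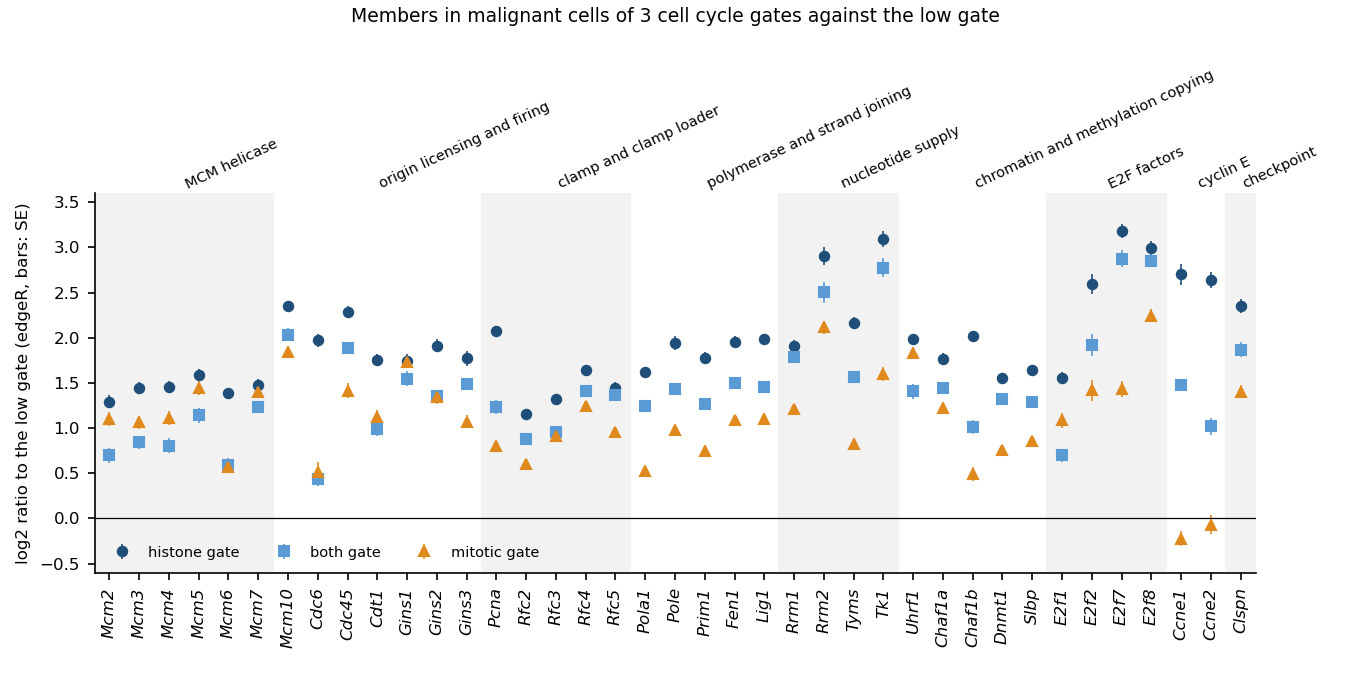
Log2 ratio to the low gate (vertical axis) of each of the 39 members (horizontal axis, grouped by role) in the histone, both and mitotic gates of malignant cells, with bars of 1 SE from the edgeR fit over 5 samples. All 39 lie above 0 in the histone gate, from 1.15 to 3.18, and Ccne1 and Ccne2 lie at -0.22 and -0.07 in the mitotic gate.

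The cyclin E genes, whose products drive the kinase Cdk2 at the entry to S phase, fell most between the histone and the mitotic gate. Ccne1 stood at 14.7, 14.2, 12.03, 9.76 and 13.4 CPM in the low gate and at 63.9, 80.8, 72.6, 79.8 and 99.7 in the histone gate. It was at 33.3, 35.03, 27.8, 27.1 and 39.4 in the both gate and at 10.9, 10.3, 8.99, 9.19 and 12.5 in the mitotic gate. The histone gate lay above the other 3 gates without overlap, and the mitotic gate lay below the low gate within every sample. The log2 ratio of the histone to the low gate was 2.70 ± 0.11 (SE), edgeR adjusted p = 1.3e-07, and that of the mitotic to the histone gate was -2.90 ± 0.07 (SE), edgeR adjusted p = 7.25e-12. Ccne2 followed, at 9.84, 12.2, 11.1, 6.43 and 9.22 in the low gate, 56.0, 58.6, 64.8, 54.0 and 53.6 in the histone gate and 10.3, 9.51, 7.62, 6.87 and 9.52 in the mitotic gate. Its mitotic level differed from that of the histone gate by a log2 ratio of -2.68 ± 0.09 (edgeR adjusted p = 2.2e-10) and differed from the low gate by -0.07 ± 0.11 (edgeR adjusted p = 0.598).

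Among the E2F factors, the repressors E2f7 and E2f8 had larger log2 ratios in the histone gate than the activators E2f1 and E2f2. E2f7 stood at 7.46, 6.93, 7.13, 6.94 and 7.03 CPM in the low gate and at 62.7, 46.2, 61.3, 71.2 and 65.2 in the histone gate. The ratio was 9.06-fold, a log2 ratio of 3.18 ± 0.08 (SE), edgeR adjusted p = 1.92e-08, the highest of the 39. It was at 52.5, 34.9, 44.8, 64.3 and 45.0 in the both gate and at 19.0, 13.9, 16.6, 21.5 and 20.1 in the mitotic gate, which overlapped with neither the low nor the both gate. E2f8, its partner repressor, ranged from 12.2 to 19.0 in the low gate, from 109 to 124 in the histone gate and from 60.8 to 74.4 in the mitotic gate, a log2 ratio to the low gate of 2.24 ± 0.07 and the highest of all members there. The activators E2f1 and E2f2 rose by 1.56 ± 0.06 and 2.59 ± 0.11 on the log2 scale in the histone gate. E2f1 ran from 23.2 to 31.9 in the low gate, 70.8 to 83.5 in the histone gate and 46.0 to 65.5 in the mitotic gate.

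Nucleotide supply genes had median log2 ratios to the low gate of 2.53, 2.15 and 1.41 in the histone, both and mitotic gates, and all 4 fell between the histone and the mitotic gate, with a median of -1.05. Rrm2, the regulated subunit of ribonucleotide reductase, stood at 118, 112, 108, 59.5 and 90.4 CPM in the low gate and at 784, 667, 669, 626 and 664 in the histone gate. In the mitotic gate it was at 501, 409.7, 361, 294 and 410.4, so all mitotic samples still lay above all low samples. Its log2 ratios to the low gate were 2.90 ± 0.10 (SE), edgeR adjusted p = 5.72e-08 in the histone gate and 2.12 ± 0.07 (SE), edgeR adjusted p = 1.06e-08 in the mitotic gate. Tk1, the thymidine salvage kinase, fell more than Rrm2 between the histone and the mitotic gate. It went from 45.3, 46.3, 63.8, 37.7 and 46.6 in the low gate to 362, 324, 456, 428 and 379 in the histone gate and to 144, 116, 141, 135 and 146 in the mitotic gate. The rise was 8.56-fold, and the log2 ratio of the mitotic to the histone gate was -1.48 ± 0.05 (edgeR adjusted p = 3.49e-10). Tyms, which makes thymidylate, and Rrm1, the large reductase subunit, rose by log2 ratios of 2.16 ± 0.07 and 1.91 ± 0.06 in the histone gate.

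By their median, the helicase subunits differed least of all roles between the histone and the mitotic gate. All 6 rose in the histone gate, by log2 ratios of 1.29 for Mcm2 to 1.59 for Mcm5, and 5 of the 6 passed the test downward between the histone and the mitotic gate, with a median of -0.25. Mcm5 stood at 168, 149, 144, 112 and 149 CPM in the low gate, 482, 376, 366, 404 and 437 in the histone gate and 454, 321, 302, 355 and 429.5 in the mitotic gate. Its mitotic and histone ranges overlapped, and the mean difference was -0.13 ± 0.04 (SE), edgeR adjusted p = 0.00957. Mcm7 went from 163, 179.5, 204, 118 and 162 in the low gate to 438, 451, 482, 390.0 and 423 in the histone gate and 457, 404, 413, 341 and 424 in the mitotic gate. The difference between the last 2 gates did not pass the test, at -0.07 ± 0.04 (SE), edgeR adjusted p = 0.164. Mcm6, whose window holds 3 words, was the subunit with the largest fall, a log2 ratio of -0.80 ± 0.05. In the both gate, between these 2 gates by its markers, all 6 were lower than in the histone gate, with a median of -0.61, and 5 of the 6 had a lower log2 ratio to the low gate there than in the mitotic gate, with no test of that order.

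Cdc6 and Gins1 were the ends of the licensing and firing genes. Cdc6, which loads the helicase on origins, was at 19.3, 22.7, 21.9, 12.3 and 19.9 CPM in the low gate and at 73.8, 74.2, 75.6, 60.0 and 72.8 in the histone gate. It was at 26.2, 25.3, 22.5, 19.8 and 24.7 in the both gate and at 28.1, 24.9, 22.6, 22.4 and 31.4 in the mitotic gate, both below the histone gate in every sample. Its log2 ratio of the both to the histone gate was -1.54, behind only Ccne2 among the members. Gins1, a subunit of the GINS complex that activates the helicase, was the only member whose fitted log2 ratio of the mitotic to the histone gate was not below 0. It went from 29.7, 31.6, 39.4, 17.9 and 32.6 in the low gate to 92.9, 98.1, 104, 75.5 and 106 in the histone gate and 97.3, 96.4, 102, 63.9 and 112 in the mitotic gate. It was lower in the mitotic gate in 3 samples and higher in 2, and the difference between the last 2 gates did not pass the test, at 0.01 ± 0.04 (SE), edgeR adjusted p = 0.788. Cdc45, Mcm10, Cdt1, Gins2 and Gins3 lay between, with log2 ratios of the mitotic to the histone gate from -0.86 for Cdc45 to -0.49 for Mcm10.

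In the clamp and its loader, the clamp fell most. Pcna, the clamp itself, was at 192, 195, 238, 117 and 172 CPM in the low gate, 746, 743, 852, 556 and 732 in the histone gate and 331, 306, 315, 202 and 338 in the mitotic gate. The last 2 gates did not overlap, with a log2 ratio of -1.26 ± 0.05 (SE), edgeR adjusted p = 8.22e-10. The loader subunits Rfc2, Rfc3, Rfc4 and Rfc5 fell by less, with log2 ratios from -0.54 for Rfc2 to -0.38 for Rfc4. The polymerase genes Pola1, Pole and Prim1, the flap nuclease Fen1 and the ligase Lig1 all fell, with log2 ratios from -1.07 for Pola1 to -0.85 for Fen1.

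Genes that copy chromatin and methylation marks ranged widely. Chaf1b, a subunit of the histone chaperone that follows the fork, went from 18.8, 18.7, 21.7, 13.1 and 16.4 CPM in the low gate to 73.1, 66.1, 82.1, 61.01 and 59.9 in the histone gate and 25.6, 23.2, 23.3, 21.3 and 23.8 in the mitotic gate. Its log2 ratio of the mitotic to the histone gate was -1.52 ± 0.06 (SE), edgeR adjusted p = 1.92e-09, without overlap. Its partner Chaf1a had a log2 ratio of -0.53 ± 0.04, and Uhrf1, which finds hemimethylated DNA for the methyltransferase Dnmt1, of -0.14 ± 0.04, while that of Dnmt1 itself was -0.79 ± 0.05. Slbp, which binds the stem-loop of histone transcripts, had -0.77 ± 0.03, and Clspn, the adaptor of the replication checkpoint, -0.94 ± 0.04.

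Genes outside the 39 that share the work also rose in the histone gate. Of 44 other replication and S phase genes, 44 rose in the histone gate with a median of 1.52, led by the histone chaperone Asf1b at 2.68 ± 0.09 and cyclin A2, Ccna2, at 2.61 ± 0.11. Between the histone and the mitotic gate 36 fell and 3 rose, which were Dbf4, the activator of the Cdc7 kinase, at 1.18 ± 0.03, Ccna2 at 1.02 ± 0.03 and the origin subunit Orc1 at 0.48 ± 0.08. Of 29 regulators of RB and E2F, 22 were higher and 6 lower in the histone gate than in the low gate. The S and G2 regulators Fbxo5, Foxm1 and Mybl2 led at log2 ratios of 3.05 ± 0.10, 2.89 ± 0.10 and 2.75 ± 0.07, and the kinase inhibitors Cdkn2b and Cdkn1a fell most, at -1.15 ± 0.10 and -0.91 ± 0.11. By promoter word the members did not part on this axis, with no test: the median log2 ratio of the mitotic to the histone gate was -0.79 in the 15 with a word and -0.77 in the 18 without.

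The summed level of the 39 genes followed the cell class. In all malignant cells it was 54.1, 52.7, 53.6, 41.1 and 52.5 UMIs per 10000. OPC-like cells were highest, at 65.7, 61.5, 60.3, 57.3 and 65.0. NPC-like cells were at 45.5, 34.96, 39.9, 28.6 and 30.01 and committed OPC-like cells at 37.1, 36.4, 37.0, 33.3 and 38.99. Neither of these states was above the other in every sample. OPC-like cells did not overlap with any other state, whereas the ranges of NPC-like and committed OPC-like cells overlapped. Premyelinating oligodendrocyte-like cells ranged from 21.7 to 36.1, MES-like cells from 22.1 to 31.5 and AC-like cells from 19.4 to 24.2, and neighbours in that order overlapped. Among host cells, microglia ranged from 28.0 to 34.3 and T cells from 32.6 to 42.9, and neutrophils, which no longer divide, were at 5.95, 6.08, 18.5, 7.98 and 10.6. The neutrophil values of vehicle 2 and vehicle 4 rest on 5 and 4 cells and the T cell value of vehicle 2 on 5 cells. The malignant glial markers, which the host gates cap, stood in host classes at 2.31 to 15.1 percent of their level in malignant cells of the same sample, and the 39 genes at 11.0 to 95.2 percent, above the markers in every class and sample. In neutrophils the markers stood at 3.98 to 13.5 percent and the 39 genes at 11.0 to 34.6 percent. The neutrophil level is not read as expression, and how much of it came from other cells was not tested. Neutrophil samples had a median of 1196 to 1739 UMIs in a cell, against 5450 to 7936 in microglia. The neutrophil level is thus no measure of the background in deeper host classes. Macrophages, at 17.1 to 26.9, and fibroblasts, at 12.1 to 20.1, all lay under the lowest microglia sample.

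**Figure D2:**
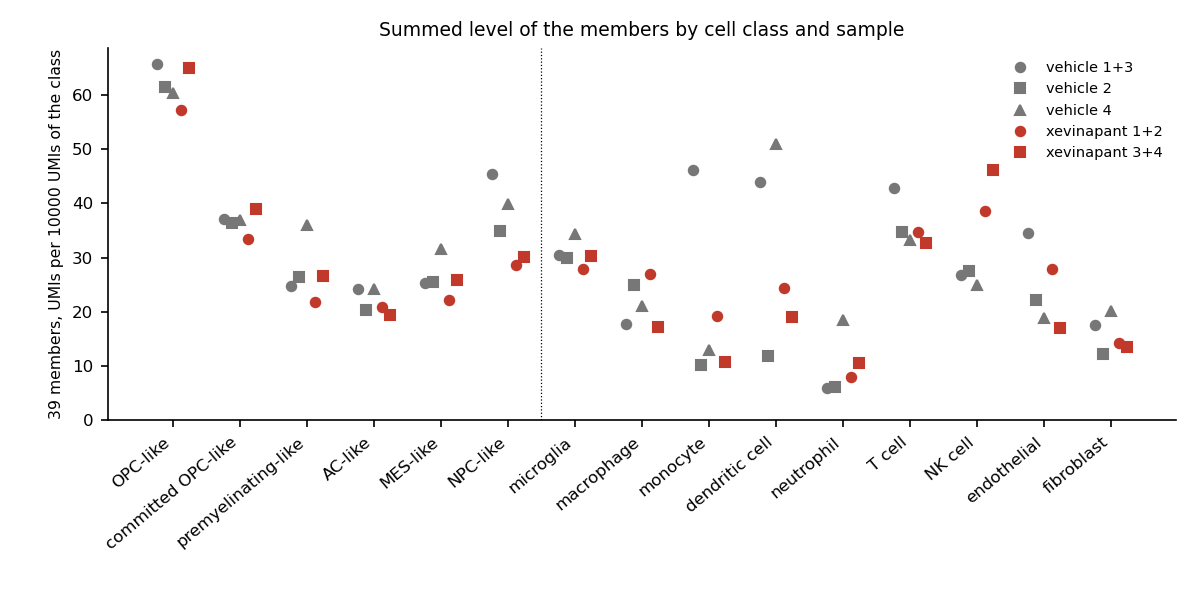
Summed level of the 39 members in UMIs per 10000 (vertical axis) for each cell class, 1 point per sample, vehicle and Xevinapant in separate colours. OPC-like cells sit between 57.3 and 65.7, above every other class, and neutrophils between 5.95 and 18.5, with the 18.5 from 4 cells.

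Nearly every member was lower outside the OPC-like state. Against OPC-like cells, 39 of 39 members were lower in committed OPC-like cells (29.6% of all genes tested were), with a median log2 ratio of -0.75. In premyelinating oligodendrocyte-like cells 39 were lower (28.3% of all genes) with a median of -1.16, in AC-like cells 39 (36.3%) with -1.53, and in MES-like cells 39 (32.9%) with -1.25. In NPC-like cells 38 were lower (23.5%) with a median of -0.93, and 1 was higher (20.9% of all genes). The members with the largest differences were Tk1 and Rrm2 in committed OPC-like cells, at -1.12 ± 0.06 and -1.10 ± 0.04, Tk1 and Cdc6 in premyelinating oligodendrocyte-like cells, at -1.71 ± 0.16 and -1.66 ± 0.18, E2f7 and E2f8 in AC-like cells, at -2.06 ± 0.10 and -1.89 ± 0.10, and Rrm2 and Ccne1 in MES-like cells, at -2.11 ± 0.09 and -2.04 ± 0.12.

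The share of cells in cycle was also highest in OPC-like cells. In OPC-like cells it was 54.4, 53.5, 56.0, 48.7 and 51.8 percent, and in AC-like cells 10.7, 10.1, 14.9, 13.9 and 6.42 percent, with no overlap. MES-like cells held 26.3, 30.8, 25.9, 18.1 and 18.8 percent, committed OPC-like cells 19.5, 21.3, 23.3, 17.1 and 15.9 percent and NPC-like cells 44.8, 34.97, 33.9, 40 and 24.2 percent. All 4 states lay below the lowest OPC-like sample. Among host cells, 21.1, 20.6, 27.6, 22.7 and 16.5 percent of microglia were in cycle and 14.7 to 26.1 percent of endothelial cells. Depth differed between the states, and with every cell thinned to 3000 UMIs the shares ran from 49.9 to 56.9 percent in OPC-like, 24.8 to 43.3 in NPC-like, 18.1 to 31.4 in MES-like, 17.1 to 23.5 in committed OPC-like and 7.17 to 16.4 in AC-like cells.

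**Figure D3:**
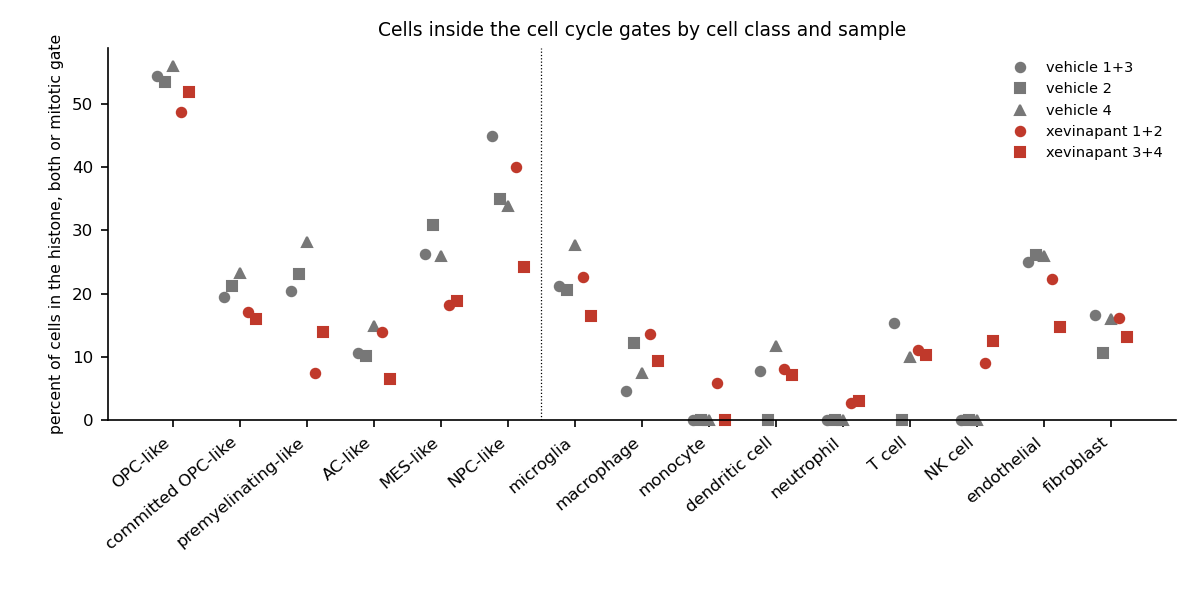
Percent of cells in the histone, both or mitotic gate (vertical axis) for each cell class, 1 point per sample, vehicle and Xevinapant in separate colours. OPC-like cells lie between 48.7 and 56.0 percent and AC-like cells between 6.42 and 14.9 percent.

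The members also differed between states within the low gate and within the cells in cycle. Cells in cycle pool the histone, both and mitotic gates, between which the members themselves differed. The mix of these gates was not compared between states, so its part in the in-cycle differences was not tested. Within the low gate, where histone and mitotic transcripts are scarce, 39 of 39 members were lower in AC-like than in OPC-like cells (32.9% of all genes) with a median log2 ratio of -1.53, and 39 in MES-like cells (29.3%) with -1.52. In committed OPC-like cells 38 were lower (24.8%) with -0.91. Within the cells in cycle the medians were nearer to 0. There 36 were lower in AC-like cells (19.6%) with a median of -0.45, and 32 in MES-like cells (27%) with -0.51. In committed OPC-like cells 14 were lower (18.2%) with -0.13, and 1, E2f7, was higher (17.2%) at 0.26 ± 0.06. The summed level in the low gate was 33.6 to 42.2 UMIs per 10000 in OPC-like cells against 12.2 to 14.5 in AC-like and 13.2 to 16.8 in MES-like cells. In cycle it was 65.2 to 71.9 against 43.7 to 52.7 and 44.2 to 50.6. These in-cycle counts moved with the settings: 19 members were lower in AC-like and 5 in committed OPC-like cells with every cell thinned to 3000 UMIs, and 8 in MES-like cells with the marker cuts doubled. The shares of all genes called in these fits are not given, so whether the members alone lost calls is not shown.

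**Figure D4:**
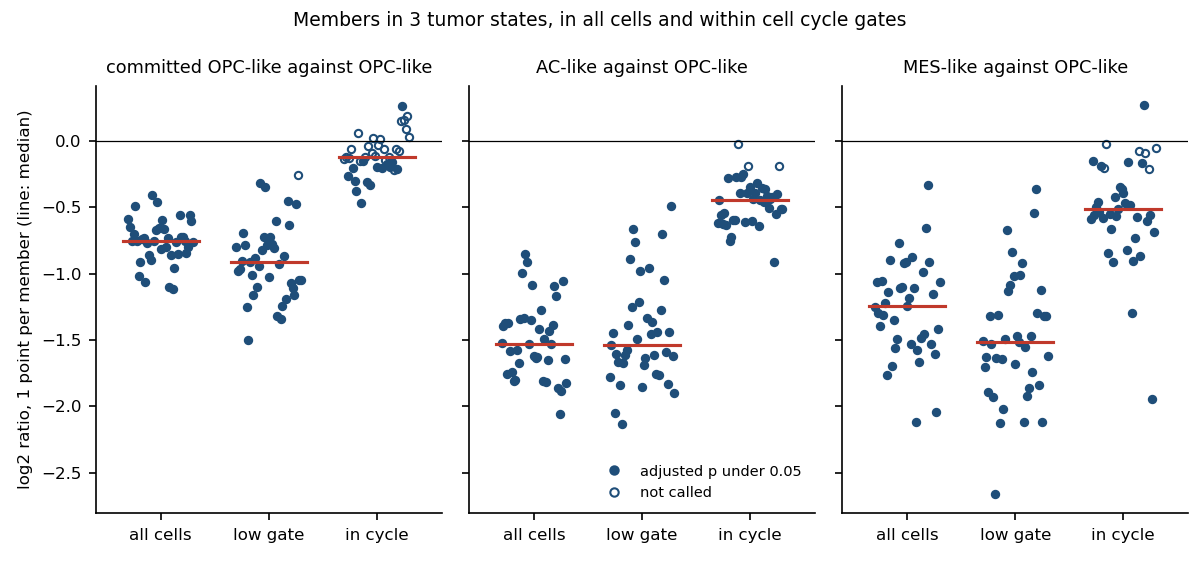
Log2 ratio to OPC-like cells (vertical axis) of the 39 members in committed OPC-like, AC-like and MES-like cells, over all cells, in the low gate and in cycle; each point is a member, filled where the adjusted p is under 0.05, and the line is the median. The medians in cycle, from -0.51 to -0.13, lie nearer to 0 than those of the low gate, from -1.53 to -0.91.

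Cdc6 and Mcm5, a loader and a subunit of the helicase, had the largest low-gate differences in AC-like cells. Cdc6 stood at 35.5, 38.7, 34.8, 29.1 and 37.0 CPM in OPC-like cells of the low gate and at 9.55, 7.62, 7.60, 4.69 and 7.47 in AC-like cells of the same gate. The groups did not overlap, and the log2 ratio was -2.13 ± 0.10 (SE), edgeR adjusted p = 3.13e-07. Mcm5 was at 281, 227, 212, 207 and 260.0 against 58.7, 48.0, 49.2, 46.9 and 60.1, a log2 ratio of -2.05 ± 0.05 (SE), edgeR adjusted p = 1.98e-08. Every OPC-like sample was above every AC-like sample. In cycle the log2 ratios were -0.75 ± 0.16 for Cdc6 and -0.63 ± 0.07 for Mcm5. AC-like cells in cycle held Cdc6 at 28.5, 21.7, 16.97, 9.79 and 37.5, so 4 of these 5 samples lay below every OPC-like sample of the low gate. These values rest on 61, 38, 148, 66 and 77 cells, with as few as 645516 UMIs in a sample.

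MES-like cells were defined by markers that include Vegfa, Adm and Slc2a1. Within the low gate they differed most in Cdc6 and Gins1, at log2 ratios of -2.655 and -2.127, and over all cells in Rrm2 and Ccne1. Rrm2 was at 544, 446, 402, 364 and 435 CPM in OPC-like cells and at 126, 84.9, 123, 66.2 and 97.95 in MES-like cells, without overlap. The ratio was 0.231, a log2 ratio of -2.11 ± 0.09 (SE), edgeR adjusted p = 1.65e-08. Ccne1, which also differed between the gates pooled in cycle, was the member with the largest difference in cycling MES-like cells. It stood at 36.0, 41.6, 33.1, 33.3 and 47.9 in OPC-like cells in cycle and at 7.44, 8.36, 10.2, 5.94 and 15.2 in MES-like cells in cycle, a log2 ratio of -1.94 ± 0.13 (SE), edgeR adjusted p = 3.57e-08. The groups did not overlap, and AC-like cells in cycle had 24.4, 35.6, 32.4, 32.2 and 38.5, which overlapped with OPC-like cells (edgeR adjusted p = 0.198). Slbp, which histone transcripts need for their processing, went the other way. In cycle it was at 176, 162, 166, 175 and 189.5 in OPC-like and 182, 197, 238, 175 and 218 in MES-like cells, overlapping ranges with a log2 ratio of 0.27 ± 0.07 (SE), edgeR adjusted p = 0.00379, the only member called higher there (26.6% of all genes were).

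E2f1 was the exception in NPC-like cells, which were gated on neuronal markers such as Dcx and Sox11. It was at 61.8, 49.4, 49.1, 55.8 and 56.6 CPM in OPC-like cells and at 66.0, 91.0, 67.2, 80.3 and 105 in NPC-like cells. Every NPC-like sample was above every OPC-like sample, with a log2 ratio of 0.56 ± 0.12 (SE), edgeR adjusted p = 0.00287. The other E2F factors ran the opposite way there: E2f2, E2f7 and E2f8 were at log2 ratios of -1.15 ± 0.15, -1.20 ± 0.19 and -1.29 ± 0.15. E2f7 ranged from 26.2 to 42.0 in OPC-like and from 6.73 to 9.81 in AC-like cells, a log2 ratio of -2.06 ± 0.10 (SE), edgeR adjusted p = 2.35e-07, the largest difference of any member in AC-like cells.

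The 44 other replication genes followed, with 44 lower in AC-like cells (median log2 ratio -1.39), 44 in MES-like cells (-0.97) and 41 in NPC-like cells (-0.78). The 29 regulators of RB and E2F went both ways. In AC-like cells 7 were higher and 21 lower, with the cyclin Ccnd2 at 2.12 ± 0.11 and the inhibitor Cdkn2b at 1.88 ± 0.11 above OPC-like cells and Cdkn1c at -1.87 ± 0.05 below. In MES-like cells 7 were higher and 19 lower, and the p53 target Cdkn1a, an inhibitor of cyclin E kinase, was at 3.42 ± 0.09. In NPC-like cells 4 were higher and 17 lower, led by Mycn at 1.79 ± 0.15 and the cyclin D kinase Cdk6 at 1.10 ± 0.12.

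The share of malignant cells in cycle was lower in both Xevinapant samples than in any vehicle sample. It was 42.1, 43.8, 46.9, 31.3 and 37.8 percent, a mean of 44.3 ± 2.41 (SD, n = 3) in vehicle and 34.5 ± 4.63 (SD, n = 2) with Xevinapant. The exact two-sided permutation p was 0.1, the smallest that 3 against 2 samples allow, and 0.2 adjusted over the 16 classes tested. The share of the low gate ran the other way, at 37.4, 32.6, 27.6, 51.5 and 40.6 percent. Within states the mean in-cycle share of Xevinapant minus that of vehicle was -4.38 percentage points in OPC-like cells, -4.87 in committed OPC-like cells, -13.2 in premyelinating oligodendrocyte-like cells and -9.15 in MES-like cells, without overlap in any of the 4 and each with an exact permutation p = 0.1. AC-like and NPC-like cells overlapped. With the marker cuts doubled the difference was -1.36 percentage points in committed OPC-like cells (exact permutation p = 0.7), -7.55 in premyelinating oligodendrocyte-like cells (exact permutation p = 0.2) and -15.7 in NPC-like cells (exact permutation p = 0.1). With no doublets removed the committed OPC-like shares overlapped, at an exact permutation p = 0.2. Without Xevinapant 1+2 the difference was -6.435 percentage points in malignant and -2.81 in OPC-like cells. With every cell thinned to 3000 UMIs, which left out 1016 shallower malignant cells of vehicle and 881 of Xevinapant samples, the difference was -9.91 percentage points in malignant and -4.31 in OPC-like cells. With each matrix as 1 sample, 4 against 4, the malignant, OPC-like, premyelinating oligodendrocyte-like and MES-like shares reached the exact permutation p = 0.0286, the smallest that split allows, and the committed OPC-like share gave an exact permutation p = 0.0571.

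No member passed the test between treatments in malignant cells. edgeR called 0 of the 39, and 0% of the 14541 genes tested, while 9 members and 1593 genes had an unadjusted p under 0.05, and DESeq2 called 235 genes and 0 members. With each matrix as 1 sample edgeR called 626 genes, and 2 members were lower against 2.66% of all genes. Of the 39 log2 fold changes of Xevinapant over vehicle, 35 were negative, with a median of -0.20 against 0.01 over all genes. On simulated counts of this design edgeR called 51 of 100 genes changed by a log2 of 1, and smaller changes were not simulated. The lack of calls thus does not show that the levels were equal. The summed level was 54.1, 52.7, 53.6, 41.1 and 52.5 UMIs per 10000, so Xevinapant 3+4 lay close under the vehicle samples and Xevinapant 1+2 well below them. Without Xevinapant 1+2 the median was -0.06, and without Xevinapant 3+4 it was -0.35. The OPC-like share of malignant cells was 55.2, 59.5, 67.4, 39.96 and 48.3 percent. Like the summed level, this share and the in-cycle share were lowest in Xevinapant 1+2. Among the vehicle samples both shares were lowest in vehicle 1+3, where the level was highest. The part of these shares in the level was not tested. Summed fibroblast markers were at 0.949, 0.387, 0.625, 2.73 and 1.004 UMIs per 10000, highest in Xevinapant 1+2, with Xevinapant 3+4 close to vehicle 1+3.

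The 3 largest differences were in Rrm1 and Rrm2, the subunits of ribonucleotide reductase, and the clamp Pcna. Rrm1 stood at 255, 307, 262, 147 and 216 CPM. Rrm2 was at 431, 368, 347, 234 and 334 and Pcna at 389.5, 370.2, 415, 228 and 356. In each of them both Xevinapant samples were below the 3 vehicle samples. The log2 fold changes were -0.65 ± 0.19 (SE), edgeR adjusted p = 0.441 for Rrm1, -0.47 ± 0.18 (SE), edgeR adjusted p = 0.441 for Rrm2 and -0.47 ± 0.19 (SE), edgeR adjusted p = 0.448 for Pcna, so none passed. E2f1, by contrast, was at 53.1, 46.1, 46.0, 42.7 and 52.1, with overlapping groups. The 44 other replication genes had 0 called, 43 negative values and a median of -0.28, with 12 at an unadjusted p under 0.05. The 29 regulators had 0 called, 18 negative values and 8 at an unadjusted p under 0.05.

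The median member difference between treatments was -0.24 in the low gate, -0.13 without Xevinapant 1+2, and 0.07 in the cells between the gates. It was 0.01 in the histone gate, -0.02 in the both gate and 0.03 in the mitotic gate. Within the low gate of single states it was nearer to 0 or above it, at -0.11 in OPC-like, -0.08 in AC-like, -0.03 in MES-like and 0.10 in committed OPC-like cells, where 26 of 39 were positive. OPC-like cells made up 862 of the 2432 low-gate cells, 724 of 1717, 1402 of 2816, 642 of 2559 and 1250 of 4145, and the part of this in the pooled value was not tested. In cycle the medians were 0.02 in OPC-like, 0.05 in AC-like, 0.04 in MES-like and 0.14 in committed OPC-like cells, the last with 31 of 39 positive and 9 at an unadjusted p under 0.05. edgeR and DESeq2 called 0 members in each of these 8 fits, with 1 to 9 at an unadjusted p under 0.05 by edgeR, where 7.05% to 12.9% of all genes were. It called 0.00739% of all genes in OPC-like cells in cycle and 0% in the others. In the low gate Rrm1, Rrm2 and Pcna had the 3 largest differences, at -0.64 ± 0.18, -0.60 ± 0.17 and -0.54 ± 0.19 (edgeR adjusted p = 0.498 for each). In cycle, Cdt1, the licensing factor that loads MCM, had 0.34 ± 0.14 (SE), edgeR adjusted p = 0.679, and Rrm1 had -0.44 ± 0.15 (SE), edgeR adjusted p = 0.679. Both edgeR and DESeq2 called 0 of 39 in every gate, against 1 in the low gate (0.96% of all genes called lower) by edgeR with each matrix as 1 sample. At an unadjusted p under 0.05 there were 9 members in the low gate, 2 in cycle and 1 to 3 in the others, where 6.49% to 9.87% of all genes were.

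**Figure D5:**
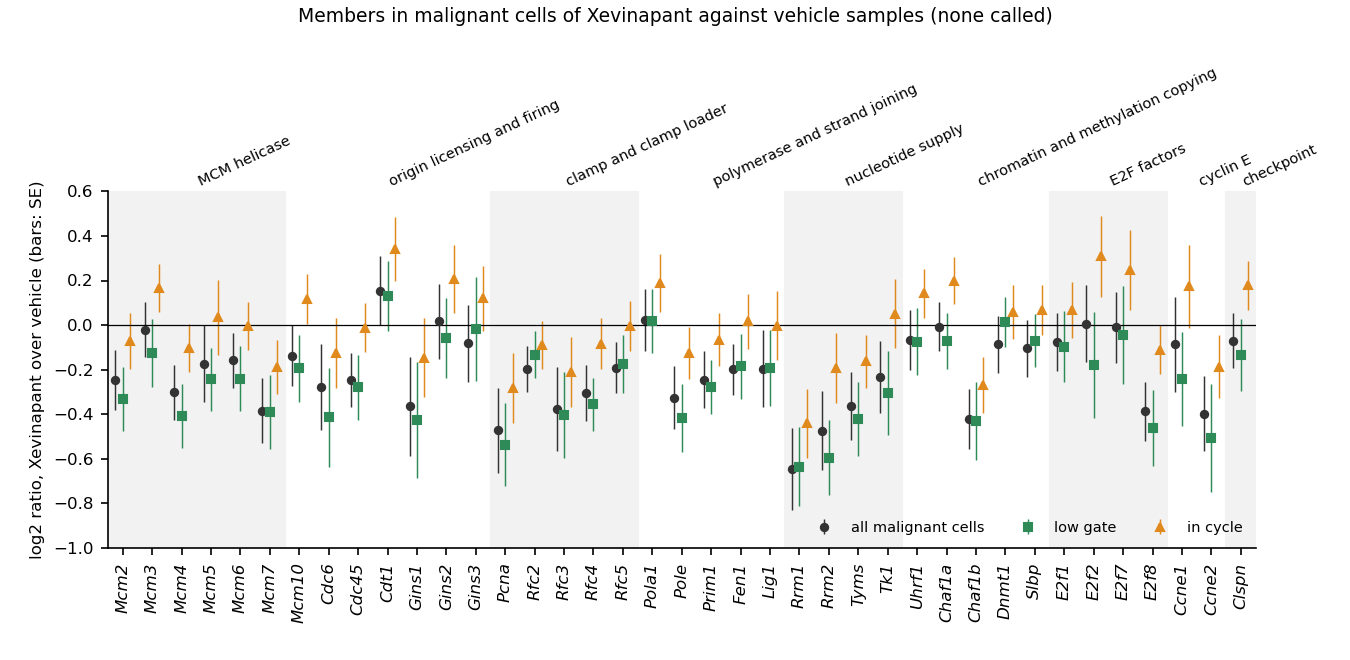
Log2 fold change of Xevinapant over vehicle (vertical axis) of the 39 members (horizontal axis, grouped by role) in all malignant cells, in their low gate and in cycle, with bars of 1 SE from the edgeR fit. Of the 39, 35 lie below 0 in all malignant cells, 36 in the low gate and 21 in cycle, and Rrm1 lies lowest in all 3.

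Rrm1 was lower with Xevinapant in every malignant state, though in none of them past the threshold. In OPC-like cells it was at 301, 352, 290.3, 201 and 258 CPM, in AC-like cells at 131, 143, 133, 78.7 and 84.9 and in MES-like cells at 134, 152, 165, 82.8 and 106. Both Xevinapant samples were below all vehicle samples in these 3 states. The same order held in committed OPC-like cells, at 176, 199, 193, 120.1 and 151, in premyelinating oligodendrocyte-like cells, at 141, 165, 201, 95.6 and 115, and in NPC-like cells, at 242, 251, 222, 108 and 159.7. The log2 fold change was closest to a call in MES-like cells, at -0.68 ± 0.15 (SE), edgeR adjusted p = 0.122, and had the smallest error in AC-like cells, at -0.73 ± 0.11 (SE), edgeR adjusted p = 0.376. It ran from -0.80 in NPC-like to -0.49 in committed OPC-like cells, and edgeR called it in none of the 6 states (0% of all genes were called in each). Rrm1 was also lower in host cells, at -0.24 in low-gate microglia, -0.30 in microglia in cycle and -0.32 in macrophages. It was at -0.48 in endothelial cells, -1.21 in monocytes and -1.34 in dendritic cells, none of them called. The value in fibroblasts is not given. The lower level was thus not particular to malignant cells. DESeq2 called 1 member lower each in committed OPC-like cells (0.631% of all genes), AC-like cells (0.125%) and MES-like cells (1.37%), 3 in NPC-like cells (0.178%) and 0 in the other 2 states. With each matrix as 1 sample edgeR called 1 member lower in committed OPC-like cells (3.39% of all genes), 1 in AC-like cells (0.129%), 3 in MES-like cells (5.02%) and 7 in NPC-like cells (0.958%).

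The median member difference was -0.05 in OPC-like cells, -0.02 in committed OPC-like cells, -0.19 in AC-like cells and -0.22 in MES-like cells, with 0 members called by edgeR in each and 1, 2, 7 and 5 at an unadjusted p under 0.05. Of all genes 8.60%, 13.7%, 8.05% and 16.5% were at such a p, so among these states only in AC-like cells was the members' share above that of all genes. In premyelinating oligodendrocyte-like cells the median was -0.15, with 30 of 39 negative and 0 called by edgeR. There 6 members were at an unadjusted p under 0.05 (10.2% of all genes were), over samples of 39 to 123 cells. That count is near the share of all genes and is not read as a result about the members. The OPC-like median was 0.01 without TMM scaling, and the MES-like median was 0.01 with the marker cuts doubled. In NPC-like cells it was -0.42, with 35 of 39 negative, 15 at an unadjusted p under 0.05 (9.98% of all genes were) and 0 called by edgeR. Tk1 was at 126, 90.6, 132, 65.7 and 56.6 CPM there and E2f8 at 40.02, 38.1, 40.2, 15.6 and 21.8, without overlap between the groups. Their log2 fold changes were -0.94 ± 0.21 (SE), edgeR adjusted p = 0.274 and -0.997 ± 0.231 (SE), edgeR adjusted p = 0.274. In OPC-like cells Tk1 was at 233, 190.0, 256, 235 and 232, overlapping, and the difference between the log2 fold changes of the 2 states was -0.98 ± 0.15 (SE), edgeR adjusted p = 0.0464. Tk1 was the only member called in that test of the difference (0.0439% of all genes were called lower), and edgeR and DESeq2 called 0 members for the 4 other states, with 1 to 8 at an unadjusted p under 0.05 (2.97% to 8.44% of all genes). edgeR called 0 members with no doublets removed, with the marker cuts doubled, with every cell thinned to 3000 UMIs, and without vehicle 1+3, vehicle 4 or Xevinapant 3+4. The in-cycle share of NPC-like cells, 44.8, 34.97, 33.9, 40 and 24.2 percent, overlapped between the groups.

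Microglia, the resident macrophages of the brain and not part of the tumor line, were divided by the same 2 marker sets. Between microglia in cycle and those of the low gate, 33 of 39 members rose (12.7% of all genes), with a median log2 ratio of 1.27. As in malignant cells, the gates were cut on cycle transcripts, so some of this rise is built in. Malignant glial markers stood in microglia at 5.825 to 8.965 percent of their level in malignant cells. The part of malignant RNA in the rise was not tested. Rrm2 went from 42.0, 34.9, 45.6, 16.7 and 58.4 to 456, 375, 385, 307 and 432 CPM, without overlap, a fitted ratio of 9.02 and a log2 ratio of 3.17 ± 0.14 (SE), edgeR adjusted p = 2.64e-16. E2f7 and E2f8 rose by log2 ratios of 3.06 ± 0.33 and 2.90 ± 0.19. Cdt1 was at 65.5, 85.9, 73.7, 69.6 and 132 in the low gate and 72.3, 98.4, 79.7, 95.6 and 52.4 in cycle, overlapping ranges with a log2 ratio of -0.26 ± 0.19 (SE), edgeR adjusted p = 0.342. The other 5 that did not pass were Cdc6, Chaf1b, E2f1, Mcm2 and Rfc3. Of 43 other replication genes tested, 30 rose and 1, Ung, fell. With every cell thinned to 3000 UMIs 23 members rose, and the share of all genes in that fit is not given. Of the regulators 14 rose while Cdkn1a fell, at -1.17 ± 0.13.

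Between treatments, edgeR and DESeq2 called 0 members in any host class. In microglia the median was -0.10, with 6 members at an unadjusted p under 0.05 (7.32% of all genes were), and the 3 largest were -0.67 ± 0.18 for E2f8, -0.45 ± 0.19 for Pole and -0.44 ± 0.14 for Pcna. In macrophages, with 33 members tested and 0 at an unadjusted p under 0.05, it was 0.12. Vehicle 2 held 5 dendritic cells, 3 monocytes and 5 T cells, under the 10 needed, and was left out of the fits of these 3 classes, which compare 2 vehicle with 2 Xevinapant samples. Dendritic cells, with 24 tested, 153 cells in all and 0.0198% of all genes called, had a median of -1.13 and 14 members at an unadjusted p under 0.05 (7.61% of all genes were). Mcm10 was the largest there, at -2.57 ± 0.53 (SE), edgeR adjusted p = 0.5, while the summed members were at 43.9, 11.8, 51.0, 24.5 and 19.1 UMIs per 10000. Both fitted vehicle samples, of 13 and 17 cells, lay above both Xevinapant samples, and vehicle 2 lay below them. Monocytes had 22 tested with a median of -0.97, over vehicle samples of 12 and 15 cells. Without vehicle 1+3 edgeR called 3 of 30 members lower in dendritic cells (0.289% of all genes), and the monocyte median was 0.47. Vehicle is then 1 sample, vehicle 4, which is assumed to vary like the 2 Xevinapant samples that give the spread. Endothelial cells had 30 tested with a median of -0.14, where 0.146% of all genes were called, fibroblasts 37 with -0.20 and T cells 9 with -0.20, where 0.827% of all genes were called. Neutrophils and NK cells held too few cells in a sample to be fitted.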

How the data were processed

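UMI counts of single cells from 8 matrices were used as deposited. Per the labels, the authors counted them with Cell Ranger 3.0 against mm10 and used Seurat 4.0, while the matrix headers name Cell Ranger 7.1.0. Here a barcode was kept if it had 200 genes or more, a mitochondrial share of no more than 10%, and a complexity, the log10 of its genes divided by the log10 of its UMIs, of 0.8 or more. Scrublet in scanpy 1.11.5 scored doublets, and the highest 0.8% per 1000 barcodes, 3756 in all, were removed. Barcodes under 1000 UMIs (2000 for malignant cells) were not classed. The 46407 cells kept were gated on marker UMIs per 10000, and 4722 that stayed unassigned, 144 immune cells of no class and 959 that met several gates were left out. Cells were taken from 4 tumors per group and the study's methods treat individual mice as samples, but no source used here ties a matrix to a mouse. Alike matrices were summed, which left 5 samples (4 where a class had under 10 cells in one). The p-values of treatment contrasts measure the spread between these samples. Those of state and gate contrasts measure how the difference within a sample varies from sample to sample. Either spread may in part be technical.

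Counts were summed per sample and class (at least 10 cells) and tested with edgeR 4.0.16 (R 4.3.3): TMM, its filter on low counts, a quasi-likelihood fit, and Benjamini-Hochberg adjustment over all genes tested. State and gate contrasts were fitted with the sample as a block, treatment contrasts without one. DESeq2 1.42.0 was an alternative, as were no TMM, no filter, each matrix as 1 sample, each sample left out, no doublets removed, cells thinned to 3000 UMIs, marker cuts doubled and at most 5% mitochondrial UMIs. Keeping the shared barcodes was added after seeing the data. Shares were compared with an exact permutation test. On simulated counts of 14541 genes with the malignant treatment design, edgeR called 84 of 100 genes changed by a log2 of 2, 51 of 100 changed by 1 and 17 of 14341 unchanged.

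Members and lists were chosen with earlier results of these data known. Any of the 39 may be named by its role. Full statistics go to members called, at most the 5 largest in each direction, or where none was called to the 3 largest, and to members at the ends of an order. Values shown beyond these, such as those of Mcm5, Mcm7, Gins1, Pcna and Slbp between gates, were picked by role.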

Additional observations from a re-analysis of the deposited data

Results flagged for a closer look

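The treatment difference of Tk1, the thymidine salvage kinase, was lower in NPC-like than in OPC-like cells by a log2 difference of -0.98 ± 0.15 (SE), edgeR adjusted p = 0.0464 for the interaction. It is listed because the same contrast gave different values in these 2 malignant states. In NPC-like cells both Xevinapant samples, at 65.7 and 56.6 CPM, lay below the vehicle samples at 126, 90.6 and 132. In OPC-like cells the groups overlapped. Of the 39 members, 38 had a negative interaction and 18 had an unadjusted p under 0.05 (8.70% of all genes did), and Tk1 alone was called. That call is not stable: edgeR called 0 members with no doublets removed, with the marker cuts doubled, with every cell thinned to 3000 UMIs, and without vehicle 1+3, vehicle 4 or Xevinapant 3+4, and 8 with each matrix as 1 sample (0.925% of all genes called lower).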

How the results depend on the processing

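No paired analysis was possible. The matrices of the 2 treatment groups carry the same numbers, but no label says that a number ties them to one animal, litter or day. Of 1364 alternative values for 104 counts, shares and scores, 1318 kept their side. Most of the 104 are counts of members called between treatments or in the interactions, with a main value of 0. Such a count keeps its side wherever a fit calls no member, so the total does not measure how stable the other results are. Percentages are the share of all genes called lower in the same fit. Members called lower with Xevinapant rose from 0 with each matrix as 1 sample to 2 in malignant (2.66%, with 626 genes in either direction), 1 in committed OPC-like (3.39%), 1 in AC-like (0.129%), 3 in MES-like (5.02%) and 7 in NPC-like cells (0.958%), and to 1 in the low gate of malignant (0.96%) and of committed OPC-like cells (1.81%). DESeq2 called 235 genes and 0 members in malignant cells. With it they were 1 in committed OPC-like (0.631%), AC-like (0.125%) and MES-like cells (1.37%) and 3 in NPC-like cells (0.178%). With no filter they were 1 in premyelinating oligodendrocyte-like cells (0.417%), 1 in AC-like cells (0.107%) and in their low gate (0.424%), 2 in MES-like (2.39%) and 6 in NPC-like cells (1%). The cause was not tested. In dendritic cells leaving out a sample gave 0 to 3 (0.289%).

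The NPC-like interaction called 2 members with DESeq2 (0.299%), 4 with no filter (0.997%), 8 with each matrix (0.925%) and 0 with no doublets removed, marker cuts doubled or thinning, and 0 to 1 with a sample left out. That of MES-like cells called 1 with no filter (0.691%). In cycle, members lower than in OPC-like cells were 19 in AC-like and 5 in committed OPC-like cells when thinned and 8 in MES-like cells with cuts doubled. For these counts the share of all genes is not given, so they are not set against it.

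The in-cycle share differed with each matrix by -9.19 percentage points in malignant, -4.32 in OPC-like, -12.5 in premyelinating oligodendrocyte-like and -8.85 in MES-like cells. It turned positive in AC-like cells with cuts doubled, at 0.246, and with a sample left out ran from -5.45 to 2.05 in AC-like and from -13.6 to 2.11 in NPC-like cells. The mean log1p UMIs per 10000 of the members, Xevinapant minus vehicle, ran with a sample left out from -0.120 to -0.0145 in malignant, -0.0610 to 0.0244 in OPC-like and -0.0388 to 0.0246 in committed OPC-like cells, and was -0.134 in NPC-like cells with cuts doubled.

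Limits: 3 against 2 samples cannot reach an exact p under 0.1, treatment cannot be told apart from library pool and batch date, and the markers that set gates and states also carry cycle and depth differences. Neutrophils, NK cells and macrophages in cycle could not be fitted.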
